A study of Mus musculus with 4 samples.

Results

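A set of 10 genes was described across 4 single-cell libraries of mouse testis. They are 1600014C10Rik, Pcdh9, Rtkn2, Dapp1, Fntb, BC029214, Mfap5, Mog, Cmya5 and Cela2a, 10 of the 18419 genes in the table. They were chosen by the measured A10 over A0 ratio, as genes with the largest differences between the pooled UMIs of these libraries, so the values of that contrast are given as a description and support nothing by themselves. The mice were males of ICR, an outbred stock, juvenile at the start of treatment and adult when the testes were taken. A0 came from control mice given the vehicle, and A10 from mice dosed with alginate oligosaccharides (AOS), short fragments of the seaweed polymer alginate, at 10 mg/kg. B0 came from mice given busulfan alone, an alkylating agent that depletes germ cells, and BA10 from mice given busulfan once and then AOS at 10 mg/kg. AOS or vehicle was given by mouth for some weeks from the day after busulfan. Each group was 1 library of several mice pooled before capture, so no test between groups was possible, and the genotypes of the pooled outbred mice and the treatment cannot be told apart.

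In the seminiferous tubule, spermatogonia give rise to spermatocytes, which pass through meiosis, and then to spermatids, which replace histones with transition proteins and protamines and become sperm. Spermatocytes and round spermatids transcribe a large part of the genome, including many genes that are better known from other tissues. Whether the 10 genes share a pathway was not tested. Dapp1 encodes an adaptor with a phosphoinositide-binding domain, known from B cell receptor signalling. Fntb encodes the beta subunit of farnesyltransferase, which attaches a lipid to Ras and other proteins. Pcdh9 is a protocadherin, a cell adhesion molecule, and Mfap5 is a glycoprotein of elastic microfibrils. Mog is a protein of the outer myelin surface, Cela2a an elastase of the pancreas, and Cmya5 a large protein of striated muscle also called myospryn. 1600014C10Rik is the mouse counterpart of human C19orf12, mutated in a form of neurodegeneration with brain iron accumulation.

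The libraries held 3778 to 9682 cells, with 25323535 UMIs (unique molecular identifiers, 1 for each captured transcript) in B0 and 91304225 to 150812974 in the others. No cell had fewer than 7687 UMIs (A0), 6716 (A10), 2985 (B0) or 9013 UMIs (BA10), so the libraries differed in which cells could enter them. Cells were clustered without the 10 genes, and clusters were named from marker genes, as SPC-like where spermatocyte markers prevailed, ST-like where spermatid markers did, and so on for other classes. A0 and A10 were alike in makeup, with 32.6% and 32.3% SPC-like and 64.4% and 65.2% ST-like cells. B0 held 62.4% Leydig-like cells, 4.46% SPC-like cells and 5 ST-like cells. BA10 held 66.2% SPC-like and 10.9% ST-like cells. The line between the classes moved with the clustering: at resolution 2 the SPC-like share was 18.4% in A0 and 18.6% in A10, as 1085 of the 1546 A0 cells and 999 of the 1482 A10 cells of the SPC-like cluster 0 were then ST-like. At resolution 0.5 the ST-like share of BA10 was 4.95%. Between 31 and 135 barcodes were shared by any pair of libraries.

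Levels are given as UMIs per 1000000 (CPM) with exact 95% Poisson intervals, which cover counting error only. Because UMIs are counted at the 3' end of each transcript, levels were not divided by gene length. Between genes they show only how many UMIs lie behind a value, and comparisons of level are made within a gene.

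Among the members with UMIs in both A0 and A10, 1600014C10Rik had the largest ratio. A0 held it at 7.47 CPM (1127 UMIs), A10 at 0.786 CPM (113 UMIs), B0 at 21.9 CPM (555 UMIs) and BA10 at 2.67 CPM (244 UMIs). A10 was thus the lowest library and B0 the highest, and the 4 intervals did not overlap. The share of cells with a UMI was 10.7% in A0 (95% exact binomial interval 10.0 to 11.3) and 1.13% in A10 (0.925 to 1.36), and each cell thinned to 5000 UMIs gave 3.91% and 0.454%. The A10 level was 9.50-fold lower than that of A0.

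Pcdh9 and Rtkn2 were also low in A10. Pcdh9 was at 3.26 CPM (A0), 0.424 (A10), 0.237 (B0) and 1.05 CPM (BA10). Its B0 value rested on 6 UMIs, and the intervals of A10 (0.325 to 0.545) and B0 (0.0870 to 0.516) overlapped, so those libraries could not be ordered. Rtkn2 was at 3.99 CPM (A0), 0.856 (A10), 1.22 (B0) and 1.29 CPM (BA10). For Rtkn2, A0 lay above the other libraries, and the interval of B0 (0.832 to 1.74) overlapped those of A10 and BA10.

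Dapp1, the gene with the most UMIs of the 10, was at 33.4 CPM (A0), 12.8 (A10), 9.91 (B0) and 0.646 CPM (BA10). The 4 intervals did not overlap, and BA10, with 59 UMIs, was far below the rest. Fntb was at 13.9 CPM (A0), 5.03 (A10), 12.9 (B0) and 4.79 CPM (BA10). Over all cells its levels formed a high pair, A0 and B0, and a low pair, A10 and BA10. The intervals overlapped within each pair and not between the pairs. Within ST-like cells, however, Fntb was higher in BA10 (7.48 CPM) than in A10 (4.59 CPM). Cela2a was at 4.95 CPM (A0), 1.66 (A10), 12.7 (B0) and 1.02 CPM (BA10), with no overlap among the 4 intervals.

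The other 4 genes were higher in A10 than in A0. BC029214 was at 5.85 CPM (A0), 13.4 (A10), 62.7 (B0) and 11.0 CPM (BA10). Mfap5 was at 3.26 CPM (A0), 7.51 (A10), 6.83 (B0) and 22.0 CPM (BA10). Both were lowest in A0, with intervals that reached no other library's. For Mfap5 the intervals of A10 and B0 overlapped. Mog was at 2.07 CPM (A0), 4.88 (A10), 1.07 (B0) and 2.65 CPM (BA10), where the intervals of A0 (1.85 to 2.31) and BA10 (2.33 to 3.01) were close but apart.

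Cmya5 was the one gene of the 10 with libraries at 0. No UMI was found in the 8941 cells of A0 or the 3778 cells of BA10, whereas A10 held 209 UMIs in 198 cells and B0 held 19 UMIs in 19 cells. A count of 0 allows up to 3 UMIs, that is 0.0199 CPM and 0.0336% of cells in A0 and 0.0329 CPM and 0.0794% of cells in BA10. The share limits cells with a UMI at this depth, not cells that express the gene. The level of 1.45 CPM in A10 (1.26 to 1.67) was 73.1-fold the limit of A0. That of 0.750 CPM in B0 (0.452 to 1.17) was 22.8-fold the limit of BA10. These ratios leave out the counting error of the higher level. Cmya5 UMIs were seen in 2.05% of A10 cells, with at most 3 UMIs in a cell.

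**Figure D1:**
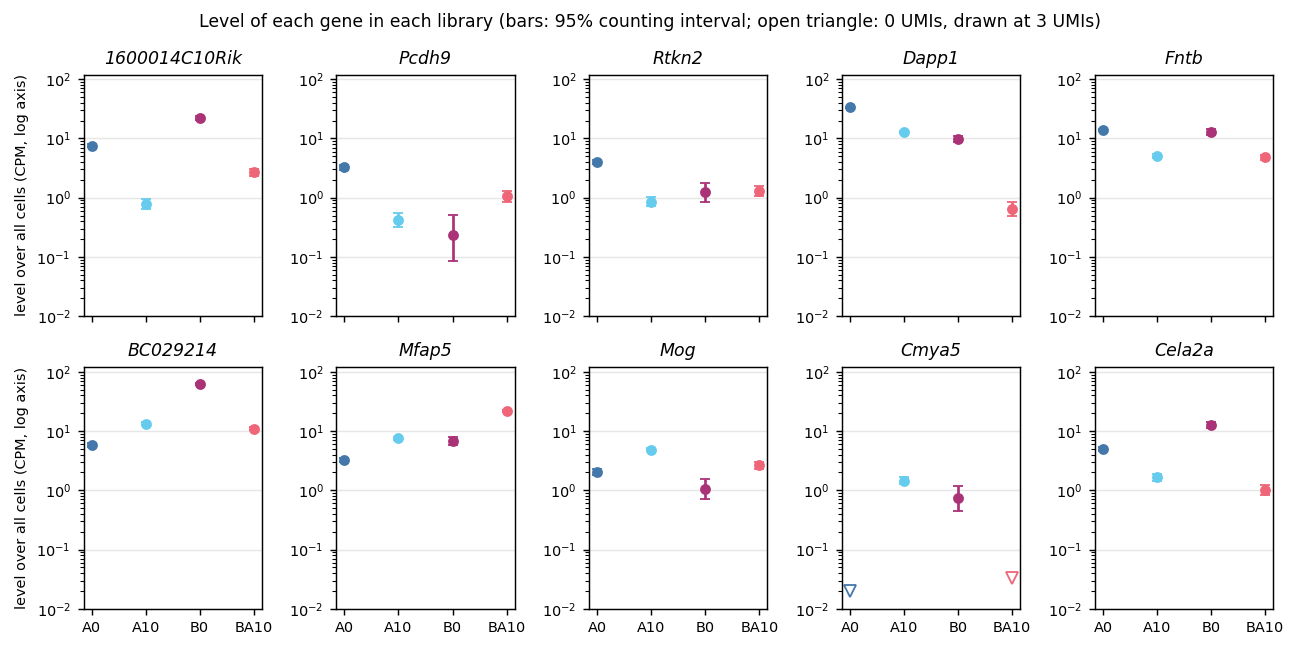
Level of each of the 10 genes in the 4 libraries, in UMIs per 1000000 (CPM) summed over all cells, on a log axis. Points are single libraries, bars are exact 95% Poisson intervals and open triangles mark 0 UMIs, drawn at the level of 3 UMIs. Dapp1 lies between 33.4 CPM in A0 and 0.646 in BA10, Fntb is low in A10 and BA10 only, and Cmya5 is at 0 in A0 and BA10.

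Log2 ratios were taken after adding 1 CPM to each level, which shrinks the ratio of low genes. A filter kept the 9024 genes with a UMI in 5% or more of the cells of A0 or of A10, and 10 of them differed by 2-fold or more, or 0.111%, 4 of them higher and 6 lower in A10. The median over these genes was -0.03 and the median size 0.09. Of the members 9 passed the filter and 8 of those were past 2-fold, which follows from how they were chosen. Mfap5, at 1.0006, was at the limit itself, and without called doublets it was at 0.990, inside 2-fold. Cmya5 did not pass the filter, and its ratio with 1 CPM added was 1.30.

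The 6 falls ranked first to sixth among the falls of the genes that passed the filter. They ran from -2.25 for 1600014C10Rik through -1.58 for Pcdh9, -1.43 for Rtkn2, -1.31 for Dapp1 and -1.31 for Fntb to -1.16 for Cela2a. Just outside were Mapk9 at -0.94, Slc26a10 at -0.93 and Pcsk1 at -0.90. Among rises, BC029214 at 1.07, Mfap5 at 1.00 and Mog at 0.94 ranked after Speer1 at 1.77 and Gm5861 at 1.29, which are not among the 10. Next came Atp6ap1l at 0.92, Gm14295 at 0.91 and Hapln1 at 0.88. The gap between Cela2a and Mapk9 was thus wider than that between Mog and Atp6ap1l.

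**Figure D2:**
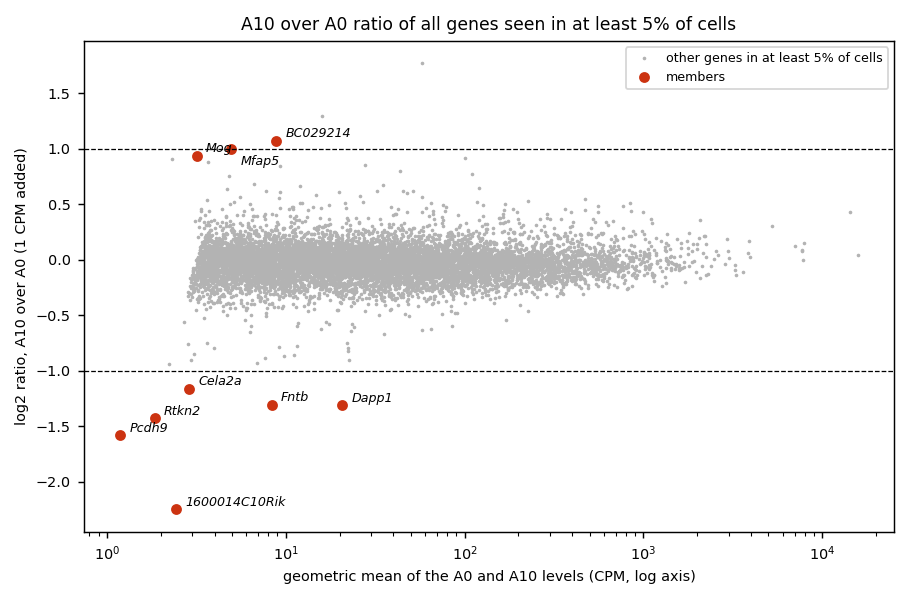
Log2 ratio of A10 over A0, with 1 CPM added, against the geometric mean of both levels in CPM (log axis) for the 9024 genes that pass the 5% filter. Red points are the 9 members that pass this filter, and dashed lines mark a 2-fold difference, past which 10 genes lie.

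The difference between A0 and A10 was then followed into the cell classes. In SPC-like and in ST-like cells all 10 genes kept the direction of the pooled ratio, with counting intervals that excluded 0. With the clusters of resolution 2 the directions were the same, but in SPC-like cells the intervals of Rtkn2 (-0.40 to 0.21) and Mog (-0.04 to 0.62) included 0. This is the contrast that chose the genes, so it shows where the difference lay and adds no independent evidence. Past 2-fold were 10 of 8915 genes within SPC-like cells (0.112%) and 12 of 8318 within ST-like cells (0.144%). Among the members, 3 of the 5 that passed the filter in SPC-like cells and 7 of the 9 in ST-like cells were past it.

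The levels of Dapp1 and Fntb were higher in SPC-like than in ST-like cells of A0. SPC-like cells held 60.3% and 59.5% of their A0 UMIs, or 44.0% and 39.8% with the clusters of resolution 2. In SPC-like cells Dapp1 was at 55.9 CPM in A0 and 19.4 in A10, and in ST-like cells at 20.9 and 8.67. Fntb was at 23.0 CPM in SPC-like cells of A0 and 5.74 in those of A10, 4.01-fold lower. In ST-like cells Fntb was at 8.89 and 4.59 CPM, only 1.94-fold lower, and its log2 intervals in the classes, -1.99 to -1.68 and -0.97 to -0.67, did not overlap. With the clusters of resolution 2 they were -2.08 to -1.69 and -1.20 to -0.94. Cela2a was 4.80-fold lower in A10 in SPC-like cells (6.71 and 1.40 CPM) and 2.39-fold lower in ST-like cells (3.86 and 1.62 CPM). With the clusters of resolution 2 its log2 intervals in the classes, -1.82 to -1.26 and -1.28 to -0.93, overlapped.

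For Pcdh9, Rtkn2, Mog and 1600014C10Rik the UMIs lay mainly in spermatid-like cells. ST-like cells held 87.8% of the Pcdh9 UMIs of A0, 91.5% of those of Rtkn2, 88.8% of those of Mog and 83.6% of those of 1600014C10Rik. In ST-like cells 1600014C10Rik was at 10.2 CPM in A0 and 1.01 in A10, Pcdh9 at 4.68 and 0.679, and Rtkn2 at 5.97 and 1.24. Mog moved the other way there, from 3.01 to 7.25 CPM. In SPC-like cells of A10 Pcdh9 was left with 3 UMIs in 3130 cells, against 49 UMIs in 2917 cells of A0, and its log2 ratio was -0.85 (-1.07 to -0.62), or -0.31 (-0.56 to -0.05) with the clusters of resolution 2.

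BC029214 and Cmya5 showed opposite preferences. BC029214 was 1.45-fold higher in SPC-like cells of A10 than of A0 (4.89 to 7.07 CPM) and 2.78-fold higher in ST-like cells (6.26 to 17.4 CPM). Cmya5 was at 2.80 CPM in SPC-like cells of A10 and at 0.586 in ST-like cells. Those levels were 50.6-fold and 18.0-fold the limits that 0 UMIs allows in the same classes of A0. Of the Cmya5 UMIs of A10, 73.7% came from SPC-like cells. Mfap5 was higher in both classes of A10, 2.18-fold in SPC-like and 2.49-fold in ST-like cells, with overlapping intervals on the log2 scale.

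**Figure D3:**
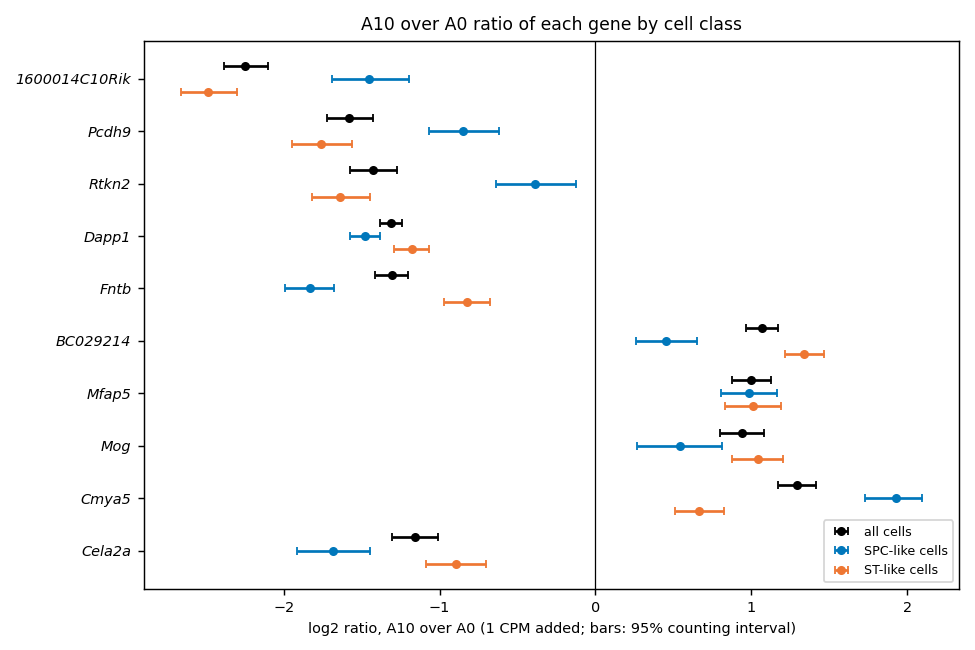
Log2 ratio of A10 over A0, with 1 CPM added, over all cells (black), within SPC-like cells (blue) and within ST-like cells (orange), with 95% counting intervals. No gene changes direction between classes. Fntb is further below 0 in SPC-like cells (-1.83) than in ST-like cells (-0.82), and BC029214 is further above 0 in ST-like cells (1.34) than in SPC-like cells (0.46).

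In all, 16 clusters (5 SPC-like, 10 ST-like and 1 unnamed) held at least 50 cells of both A0 and A10. 1600014C10Rik, Dapp1 and Fntb were lower in A10 in 16 of 16 clusters, and Mog was higher in 16 of 16. Pcdh9 and Rtkn2 were lower in 14 clusters and higher in 1, but in each cluster where either gene had 10 or more UMIs over both libraries it was lower. BC029214 and Mfap5 were each higher in 15 of 16. The exception for Mfap5 was cluster 16, ST-like, with 1.92 CPM in A0 (0.772 to 3.96) and 1.18 CPM in A10 (0.322 to 3.03).

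The clusters also showed where each gene was high. Dapp1 peaked in the SPC-like clusters 15 and 13, at 82.1 and 79.5 CPM in A0 and at 26.4 and 30.9 CPM in A10. The SPC-like cluster 11, which had the highest spermatocyte marker level, was an exception, with Dapp1 at 18.6 CPM and Fntb at 7.56 CPM in A0, below the ST-like cluster 3 at 42.4 and 14.8 CPM. Pcdh9 and Rtkn2 had high levels in clusters 4 and 10, ST-like clusters with little protamine RNA whose intervals overlapped in A0. In cluster 10 Pcdh9 was at 7.92 CPM in A0 and 1.84 in A10, Rtkn2 at 12.2 and 3.15 CPM, and Mog at 4.02 and 12.6 CPM. The protamine genes Prm1 and Prm2, which mark late spermatids, summed to 6640 CPM in cluster 10 and to 75834 CPM in cluster 7.

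BC029214 had its peak in cluster 7, where it was at 16.9 CPM in A0 and 68.0 CPM in A10. In the SPC-like cluster 11 it was at 10.1 CPM in A0 (8.15 to 12.4) and 8.86 CPM in A10 (7.10 to 10.9), intervals that overlapped. The difference in BC029214 was thus uneven along the germ cell clusters, whereas 1600014C10Rik, at 13.2 CPM in A0 and 1.81 CPM in A10 in cluster 7, was lower in A10 throughout.

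Cela2a was uneven as well. In cluster 20, SPC-like, it was at 10.3 CPM in A0 and 1.08 CPM in A10. In cluster 16, ST-like with abundant protamine RNA, it was at 3.29 CPM in A0 (1.70 to 5.75) and 5.61 CPM in A10 (3.38 to 8.76). In the unnamed cluster 18 it was at 6.41 CPM (4.15 to 9.47) and 8.29 CPM (5.31 to 12.3). These were the clusters in which Cela2a was not lower in A10, and in both the intervals overlapped.

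Cmya5 was detected in 13 of the 16 clusters of A10 and in none of A0. Its level was 4.03 CPM in cluster 11, 3.80 CPM in cluster 15 and 2.65 CPM in cluster 13, all SPC-like. In clusters 2, 16 and 22, ST-like with the most protamine RNA, it was at 0 UMIs in A10. The intervals there reached 0.313, 1.09 and 2.88 CPM. Only that of cluster 2 ended below the 0.586 CPM of all ST-like cells of A10.

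**Figure D4:**
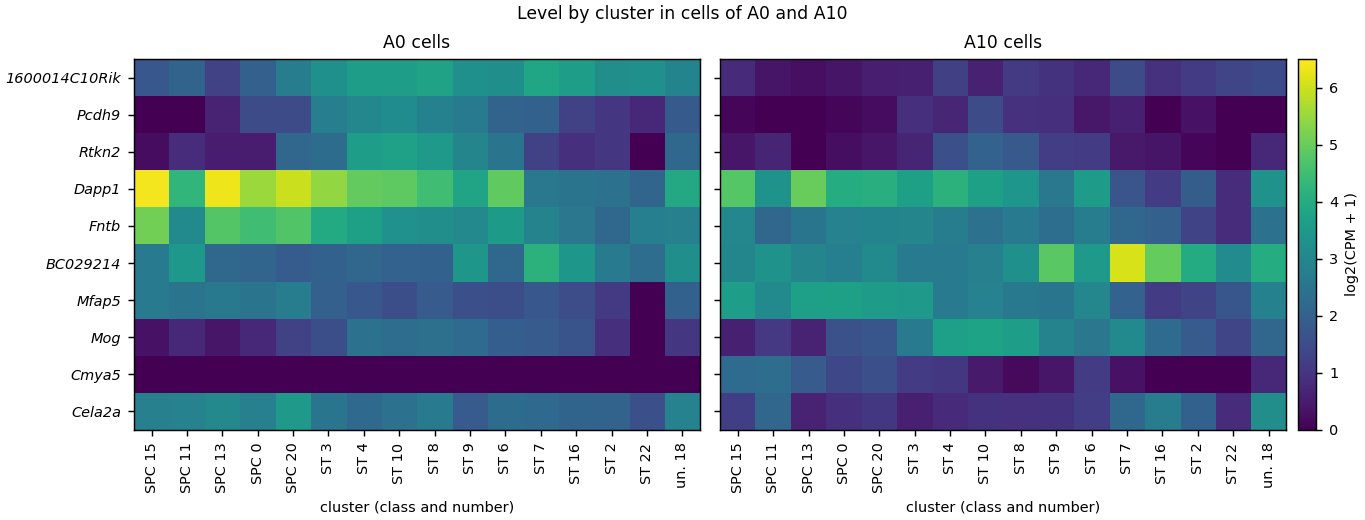
Level of the 10 genes, as log2 of CPM plus 1, in the 16 clusters with at least 50 cells of both A0 (left) and A10 (right), ordered by class and then by the summed level of Prm1 and Prm2 (un., unnamed). Dapp1 and Fntb are brightest in SPC-like clusters of A0 other than cluster 11, Pcdh9, Rtkn2 and Mog in ST-like clusters with little protamine RNA, and BC029214 in cluster 7 of A10, at 68.0 CPM.

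In the SPC-like clusters 13 and 15 together, the UMIs of Dapp1 were spread unevenly over cells. Of 759 A10 cells, 67.3% had no Dapp1 UMI, where the mean level and the depth of these cells would give 48.2% if all shared 1 level. At the other end, 34 of those cells, or 4.48%, held 5 or more UMIs, where 0.593% would follow. In the 656 A0 cells, 23.9% had no UMI against 13.8% from depth, and 20.0% held 5 or more against 16.6%. The highest count in a cell was 20 UMIs in A0 and 11 in A10. Compared with A0, A10 thus had a larger share of cells at 0 and a smaller share at 5 or more. Fntb was uneven too in A0, with 47.9% of cells at 0 against 42.1% from depth and 3.05% at 5 or more against 1.10%. In A10, at 0.174 Fntb UMIs per cell, 86.6% of cells were at 0 against 84.4% from depth. Whether other genes of like level were as uneven was not tested.

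BA10 and B0 shared no library with the choice of genes, but they differed widely in cell makeup. Over all cells 5963 of 11147 genes, or 53.5%, were past 2-fold between them. All 5 members that passed the filter were past it too, 4 lower and 1 higher in BA10, a share to be read against that background. Mfap5 passed the filter only through BA10 (36.2% of cells against 3.16%) and Cela2a only through B0 (6.27% against 2.30%). In cells of 9013 UMIs or more, 1600014C10Rik (-0.59), BC029214 (-0.32) and Mfap5 (0.57) were within 2-fold. That limit kept 448 of 4659 B0 cells and all 3778 BA10 cells. The named classes of at least 50 cells in B0 had medians of 3992 to 5098.5 UMIs. The limit thus also changed which cells of B0 were compared. In bulk sums of this kind, fewer cells of a type and less RNA per cell cannot be told apart. Of the B0 UMIs, 79.1% for 1600014C10Rik, 79.3% for BC029214 and 60.6% for Cela2a came from Leydig-like cells, a class with 48 cells in BA10. These were 62.4% of the cells of B0, and Cela2a was at 15.7 CPM in them against 12.7 CPM over all of B0.

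The same genes had UMIs in droplets of several classes of B0. In Leydig-like cells of B0, BC029214 was at 101.6 CPM, 1600014C10Rik at 35.4 and Cela2a at 15.7. In macrophage-like cells of B0 they were at 69.3, 28.3 and 11.2 CPM, in the same order. The part of free RNA and of doublets in these levels was not tested. Among named classes of at least 50 cells, Cela2a was highest in spermatogonia-like cells of B0, at 65.4 CPM (50.6 to 83.2). It had a UMI in 23.1% of those 238 cells and in 0.505% of 198 Sertoli-like cells, at median depths of 4081 and 3992 UMIs. Within B0, Rtkn2 was also highest there, at 18.8 CPM from 19 UMIs, and Dapp1 was highest in Sertoli-like cells, at 34.6 CPM from 30 UMIs.

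Within SPC-like cells, 4857 of 10011 genes (48.5%) were past 2-fold between BA10 and B0. Different clusters held these cells. In B0 nearly all were in cluster 17, in BA10 they were in clusters 5, 14 and 17, and in A0 and A10 they were in clusters 0, 11, 13, 15 and 20. B0 held only 208 of them, at a median of 5098.5 UMIs per cell against 21324 in BA10. Dapp1 was at 7.69 CPM in B0 (4.20 to 12.9) and 0.434 in BA10 (0.291 to 0.624), Cela2a at 12.1 (7.57 to 18.3) and 0.464 (0.316 to 0.659), and Fntb at 10.4 (6.28 to 16.3) and 3.98 (3.52 to 4.49).

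Those 3 of the 5 members past the filter were lower in BA10 by 2-fold or more, but Dapp1 and Cela2a passed it only through B0 (6.73% and 8.17% of cells, against 1.08% and 1.24% in BA10), so the count is partly set by the filter. BC029214, at 11.0 and 9.75 CPM, and Mfap5, at 16.5 and 21.7 CPM, had overlapping intervals. In cluster 17, 193 B0 and 404 BA10 cells lay together, and 30.3% of 9294 genes were past 2-fold. Dapp1 was there at 7.81 and 0.267 CPM, from 11 and 2 UMIs. Cela2a had 15 UMIs in each library there and was 5.32-fold lower in BA10. Dapp1 and Cela2a passed the filter in cluster 17 only through B0, as their BA10 UMIs were too few to reach 5% of cells. Fntb rested there on 6 and 12 UMIs, at 4.26 and 1.60 CPM, and its log2 interval, -2.11 to 0.16, included 0. Restriction to cluster 17, and the cluster 12 values below, were chosen after the data were seen. At resolution 2 an SPC-like cluster held 175 B0 and 40 BA10 cells, and another 39 and 509. The libraries were thus not evenly mixed there. The unnamed cluster 12 held 503 B0 and 427 BA10 cells. In it Dapp1 was at 20.1 and 1.90 CPM, Fntb at 20.9 and 8.02, Mfap5 at 11.6 and 26.1, and Cmya5 at 1.96 and 0. Those intervals did not overlap, and those of the other members did. No share of all genes past 2-fold or with intervals apart was computed there.

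Set beside A0 and A10, the SPC-like cells of BA10 stood apart for Dapp1 and Mfap5. Dapp1 was at 55.9 CPM in A0, 19.4 in A10 and 0.434 in BA10, 129-fold below A0 and 44.7-fold below A10. Mfap5 was at 4.98, 10.8 and 21.7 CPM, 4.36-fold above A0, with an interval also above that of A10. In that class 13.4% of 9807 genes were past 2-fold between BA10 and A0, and 12.6% of 9789 between BA10 and A10. These comparisons share their libraries with the one that chose the genes.

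Fntb and Cela2a had the order of Dapp1, at 23.0, 5.74 and 3.98 CPM and at 6.71, 1.40 and 0.464 CPM in SPC-like cells of A0, A10 and BA10. BC029214 had the order of Mfap5, at 4.89, 7.07 and 9.75 CPM. For Fntb, Cela2a and BC029214 too, the BA10 intervals lay clear of those of A0 and A10. These intervals cover counting error only, and the share of all genes with intervals apart was not computed. Nearly all SPC-like cells of BA10 also lay in other clusters than those of A0 and A10. Other members were ordered otherwise. Cmya5 was at 0, 2.80 and 0 CPM, with A10 at 62.3-fold the limit for BA10. 1600014C10Rik was at 2.84, 0.400 and 1.87 CPM, with BA10 nearer to A0 than to A10. Pcdh9 was at 0.904, 0.0545 and 0.375 CPM, and Mog at 0.572, 1.29 and 0.599 CPM. Rtkn2, at 0.664, 0.273 and 0.434 CPM, had an interval in BA10 that overlapped both others.

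In ST-like cells the BA10 library held the highest Mog level, 17.2 CPM (14.5 to 20.3) against 7.25 in A10 and 3.01 in A0. Mfap5 was at 15.9 CPM in BA10, 5.34 in A10 and 2.15 in A0. Pcdh9 was at 5.79 CPM (4.27 to 7.68) and Rtkn2 at 7.48 CPM (5.73 to 9.59) in BA10, with intervals that overlapped those of A0 and lay above those of A10. The same held for Fntb, at 7.48 CPM (5.73 to 9.59) in BA10, 8.89 in A0 and 4.59 in A10. BC029214 was at 6.75 CPM (5.10 to 8.77) in BA10, overlapping A0 at 6.26 and below A10 at 17.4. Of the 413 ST-like cells of BA10, 373 were in cluster 21, which held 1 cell of A0 and 0 of A10, so these levels also compare different clusters. Dapp1 was at 0.603 CPM there, from 5 UMIs, against 20.9 CPM in A0 and 8.67 in A10.

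In BA10 Mfap5 UMIs were also found in droplets of another class. Its level in 59 macrophage-like cells of that library was 21.8 CPM (14.1 to 32.1), with a UMI in 32.2% of cells at a median of 13747 UMIs, against 39.4% of SPC-like cells at a median of 21324. This equals, within the interval, the 22.0 CPM of the whole library. The part of free RNA in these levels was not tested. In the same 59 cells Mog had 1 UMI and Cela2a had 0. Their intervals reached 4.85 and 3.21 CPM and held their levels over all of BA10, 2.65 and 1.02 CPM. These counts thus show no contrast with Mfap5. In macrophage-like cells of B0, Mfap5 was at 6.83 CPM. Among clusters with at least 50 cells of a library, Mfap5 was highest in the unnamed cluster 23. It was at 44.7 CPM (37.2 to 53.4) in 119 BA10 cells there and at 41.3 CPM (27.2 to 60.1) in 110 B0 cells.

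**Figure D5:**
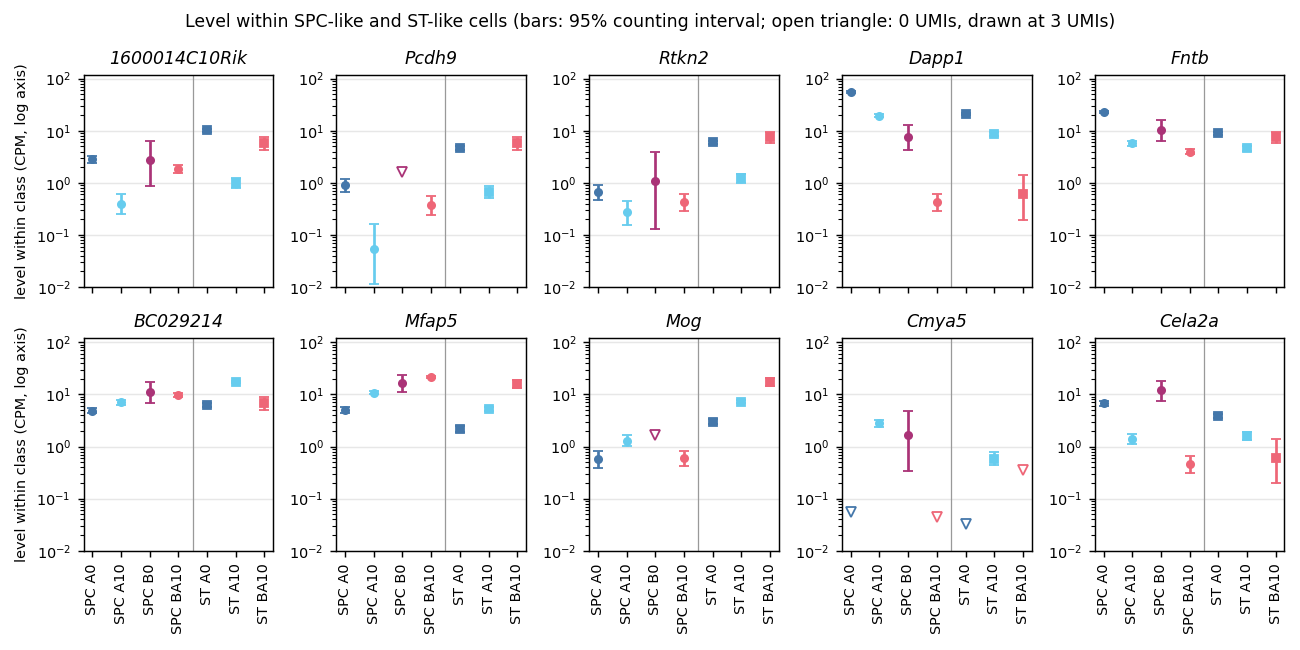
Level of each gene within SPC-like cells (circles, 4 libraries) and ST-like cells (squares, 3 libraries; B0 held 5 such cells and is left out), in CPM on a log axis. Bars are exact 95% Poisson intervals and open triangles mark 0 UMIs, drawn at the level of 3 UMIs. Dapp1 in BA10 lies far below A0 and A10 in both classes, and Mog is highest in ST-like cells of BA10, at 17.2 CPM.

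The members lie on different chromosomes. In the mm10 build (GENCODE M21), Dapp1 is on chromosome 3 from 137931007 to 137981545 (minus strand), Cela2a on chromosome 4 from 141814962 to 141826160 (minus) and Mfap5 on chromosome 6 from 122505845 to 122529290 (plus). 1600014C10Rik is on chromosome 7 from 38183217 to 38197568 (plus), Rtkn2 on chromosome 10 from 67979570 to 68059740 (plus) and Fntb on chromosome 12 from 76765589 to 76921412 (plus). Cmya5 is on chromosome 13 from 93040713 to 93144724 (minus), Pcdh9 on chromosome 14 from 93013410 to 93890679 (minus) and Mog on chromosome 17 from 37010743 to 37023398 (minus). The annotation lists these 9 as protein-coding, and BC029214 was not placed here.

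The genes next to the members were compared between A0 and A10 in the same way. Of the 22 listed neighbours and overlapping genes, 14 passed the 5% filter, and 0 were past 2-fold, with log2 ratios from -0.40 (Ctrc) to 0.37 (Churc1). With 0.111% of all genes past 2-fold, a count of 0 says nothing particular about them. Zfp57, 108 bases from Mog, was at 23.1 CPM in A0 and 18.4 in A10, while Mog was higher in A10. Churc1 overlaps Fntb on the same strand and was at 29.7 and 38.5 CPM, while Fntb was lower in A10. Ctrc overlaps Cela2a on the same strand and was at 4.18 CPM in A0 and 2.93 in A10, so that reads in the overlap of either pair cannot be divided with certainty.

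Genes of the members' families were measured as well, from lists of relatives chosen for each member. Of the 55 listed relatives 25 passed the filter and 0 were past 2-fold between A0 and A10, in either direction, beside the 0.111% of all genes. Of those below the filter, named after their values were seen, Mbp of the myelin list was at 0.769 CPM in A0 and 2.09 in A10 (log2 ratio 0.81), and Blnk of the B cell receptor list at 1.19 and 0.585 CPM (-0.46). The 7 other prenylation genes, which include the alpha subunit gene Fnta, ran from -0.14 to 0.22 on the log2 scale, beside -1.31 for Fntb. Fnta was at 186.6 CPM in A0 and 192.1 in A10. The 5 other tested genes of brain iron accumulation ran from -0.15 to 0.09. No relative of Dapp1 in B cell receptor signalling passed the filter.

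For each member the genes with the most similar pattern over the 16 clusters were taken from the levels of A0 and A10 together, by Pearson correlation of log2 of CPM plus 1. The points share libraries and depth, so the values are a description. The nearest to Dapp1 were LOC108167886 (r = 0.99) and Ttc4 (r = 0.99), to Fntb Rhobtb1 (r = 0.97) and Ddit4l (r = 0.97), and to Rtkn2 4930558K02Rik (r = 0.99) and Nfatc2ip (r = 0.98). Pcdh9 was closest to Got1l1 and Taf9b, Mog to 4930568D16Rik and Cyp2f2, and 1600014C10Rik to Gm13486 and Tbc1d21. Mfap5 was closest to Brf2 and Adss, BC029214 to Mphosph6 and Ccdc25, and Cmya5 to Uqcc2 and Rrp1. Cela2a had the weakest match, with Psap (r = 0.85) and Nfe2l1 (r = 0.83). The own A10 over A0 log2 ratios of these 20 genes ran from -0.19 for Ccdc25 to 0.38 for Cyp2f2, all within 2-fold.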

How the data were processed

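Testes were digested to single cells and captured with the 10x Genomics 3' chemistry. The submitters' processing notes name Cell Ranger 2.2.0 and the mm10 build, and the study's methods keep cells with 200 or more genes and genes seen in 3 or more cells. In the deposited table each value is a natural log, ln(1 + x), where the authors scaled the UMIs of every cell to 10000. Reversing this gave UMIs that were whole, within 0.001, for 100% of values above 0. All columns were matched to a sample (0 were not).

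UMIs were summed over a library, class or cluster and scaled to 1000000 (CPM). Log2 ratios have 1 CPM added, and genes with a UMI in at least 5% of cells of either side were compared, with 2-fold as the limit. No test was run, as each group is 1 library. Intervals are exact 95% Poisson and Clopper-Pearson intervals, combined for ratios, and cover counting error only. Limits for a count of 0 use 3 UMIs.

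Cells were clustered without the 10 genes, on 2000 variable genes, 30 principal components and 15 neighbours, by the Leiden algorithm at resolution 1 (scanpy 1.11.5, leidenalg 0.10.2), which gave 27 clusters. A class needed 3 markers detected, and classes were compared where each side held at least 50 cells. Doublets were kept. With 6% expected, Scrublet marked 721 cells (8.06%) of A0, 838 (8.66%) of A10, 48 (1.27%) of BA10 and only 4 (0.0859%) of B0, too few to be relied on there. The calculation of ratios was tested on simulated data. Of the listed symbols, 17546 matched GENCODE M21.

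The members, lists and markers were chosen with earlier results of these data known. Genes named are the 10 members, those ranking beside or between them in A10 over A0, the nearest and overlapping listed genes, relatives with the counts of their lists (1 list is not reported here), and the closest 2 genes by pattern. Alternatives were another added CPM, equal weight per cell, a common UMI limit, no called doublets, centring, thinning to 5000 UMIs, no shared barcodes, equal class shares, other clusterings and no filter.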

Additional observations from a re-analysis of the deposited data

Results flagged for a closer look

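For 3 genes the ratio of the AOS library to its own control ran one way without busulfan and the other way with it. Each group is 1 library, so the difference was not tested. The genes were chosen by the A10 over A0 ratio that enters these differences. Between BA10 and B0, 53.5% of 11147 genes were past 2-fold. The share of all genes that ran opposite ways in the contrasts was not computed, so the count says nothing particular about the members. Pcdh9 was lower in A10 than in A0 (log2 ratio -1.58) and higher in BA10 than in B0 (0.73), a difference of 2.31. BC029214 was higher in A10 (1.07) and lower in BA10 (-2.41), a difference of -3.48. Cmya5 was higher in A10 (1.30) and lower in BA10 (-0.81), a difference of -2.10. B0 and BA10 differed in cell makeup, and within SPC-like cells the interval of BA10 over B0 included 0 for Pcdh9 (-1.14 to 0.63) and BC029214 (-0.75 to 0.49). For Cmya5 that value rested on 3 UMIs in B0 and 0 in BA10, and in the unnamed cluster 12 it had 12 and 0 UMIs. With equal class shares, over the SPC-like and macrophage-like classes that both held, BA10 over B0 was 1.07 for Pcdh9, -1.29 for BC029214 and -0.83 for Cmya5. Pcdh9 had 0 UMIs in B0 in both classes, and 25 and 2 in BA10. BC029214 was at 69.3 and 22.6 CPM in macrophage-like cells of B0 and BA10, and at 11.0 and 9.75 in SPC-like cells. In cells of 9013 UMIs or more, which kept 448 of 4659 B0 cells, BA10 over B0 was 0.67, -0.32 and -1.53 for Pcdh9, BC029214 and Cmya5.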

How the results depend on the processing

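No paired analysis was possible because each group is 1 library. For A10 over A0 the 10 genes kept their direction under every alternative run, and of 80 values 62 moved by less than their counting interval and 18 by more. With 10 CPM added, the genes past 2-fold fell from 10 to 1 over all cells and from 10 to 4 within SPC-like cells. No member was past 2-fold over all cells under that setting, from -0.92 for Dapp1 to 0.56 for BC029214, with 1600014C10Rik at -0.70. Thinning left 6, 4 higher and 2 lower, as 6511 genes and 3 members then passed the filter, while 1600014C10Rik, Pcdh9, Rtkn2, Dapp1 and Fntb were at -2.24, -1.73, -1.21, -1.19 and -1.17 and Cela2a at -0.98, inside 2-fold. Without called doublets there were 8 over all cells, 3 higher and 5 lower. Without the filter on cells there were 18 over all cells and 18 within SPC-like cells. For BA10 over B0, 39 values stayed within the interval, 40 moved and 1 reversed: Mog, at 0.82, was at -0.25 in cells of 9013 UMIs or more, which kept 448 of the B0 cells. BC029214 went from -2.41 to -0.32 and 1600014C10Rik from -2.64 to -0.59 there. At that limit the genes past 2-fold fell from 5963 to 1864. Within SPC-like cells they fell from 4857 to 2532 with 10 CPM added and to 2819 in cluster 17 alone, an alternative chosen after seeing the data, as were the class ratios of the members at resolution 2. The cause of the other moves was not tested. B0, with the fewest UMIs, limits the values that rest on it.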
